A study of Mus musculus with 12 samples.

Results

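The dual-specificity MAP kinase phosphatases described here are 10 mouse genes, Dusp1, Dusp2, Dusp4, Dusp5, Dusp6, Dusp7, Dusp8, Dusp9, Dusp10 and Dusp16, taken by gene symbol from 19760 genes measured in whole kidney or in F4/80+ preparations. Each symbol had 1 row in both tables, so all 10 were measured in all 12 libraries. The family was chosen by a measured value, the difference of Dusp1 between genotypes in whole kidney, so kidney genotype differences are described below and not tested.

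The mice carried, on both copies, either the Arg-encoding or the Trp-encoding allele of rs3184504, a missense polymorphism of Sh2b3 (LNK), an adaptor that restrains cytokine signalling, introduced with CRISPR-Cas9. Every mouse in all 4 groups had received angiotensin II for 4 weeks, a treatment that raises blood pressure, and no group without angiotensin II was analysed here. Whole kidneys (3 Arg/Arg and 3 Trp/Trp libraries) were homogenised directly, and F4/80+ cells (3 and 3 libraries) came from separate kidneys by a Percoll gradient and anti-F4/80 magnetic beads. Libraries were labelled biological replicates, and the sources used here give neither age and sex nor the number of edited lines.

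MAP kinase phosphatases remove phosphate from both the threonine and the tyrosine of the activation loop of ERK, JNK and p38, which ends the signal. Many of their genes are themselves switched on by the pathway, so they form a negative feedback loop. Dusp1 (MKP-1), Dusp2 (PAC-1), Dusp4 (MKP-2) and Dusp5 act in the nucleus and are inducible. Dusp6 (MKP-3), Dusp7 (MKP-X) and Dusp9 (MKP-4) act in the cytoplasm and prefer ERK, and Dusp8, Dusp10 (MKP-5) and Dusp16 (MKP-7) prefer JNK and p38. In macrophages Dusp1 is known as a brake on inflammatory p38 and JNK signalling, and it is a target of glucocorticoids, cAMP and growth factors.

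Nuclear protein-coding counts, the denominator of every CPM value (counts scaled to equal library totals) below, were 17.8 M to 49.99 M per kidney library and 6.88 M to 11.1 M per F4/80+ library. Mitochondrial transcripts took 7.86% to 9.35% of all counts in kidney and 70.1% to 83.6% in the F4/80+ libraries. These shares are over unlike gene sets. Nuclear protein-coding genes were 15348 of 15361 genes listed for kidney and 13845 of 18145 listed for F4/80+ libraries. Adgre1, which encodes F4/80, was at 4.11 to 8.32 CPM in kidney and 1.26 to 16.7 CPM in F4/80+ libraries, and the summed level of 16 macrophage markers was 230 to 360 CPM in kidney and 126 to 300 CPM in F4/80+ libraries (15 of 16 in that table). Proximal tubule markers, 16 of 16 measured, summed to 23932 to 73127 CPM in F4/80+ libraries. The name F4/80+ preparation therefore follows the labels, and levels in it are not assigned to macrophages. Sample type and preparation cannot be told apart. In bulk libraries, fewer cells of a type and less RNA per cell cannot be told apart either.

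Upstream sequences are shown for the 3 members with the longest motif matches, all higher in F4/80+ preparations, and for Dusp7, which was lower there. Dusp10, also higher there, held no match. Dusp2 and Dusp16, with shorter matches, did not pass the test between sample types given below. Dusp4 and Dusp9 had no promoter entry. A link of motif and level was not tested. The 250 bases before the RefSeq start (build GRCm38.p6) of the 8 members in the promoter table were searched on both strands for the cAMP response element TGACGTCA, its core TGACGT and short form TGACG (each contained in the one before), the E-box CACGTG, the AP-1 motif TGANTCA, the TATA box motif TATAAA and the CArG box, which serum response factor binds. Each line gives bases 200 to 51 before the start, 5′ to 3′ on the strand of the gene, with matches in capitals. The stretches are chr17:26508523-26508672 on the minus strand for Dusp1, chr19:53528945-53529094 on the plus strand for Dusp5, chr7:142095335-142095484 on the minus strand for Dusp8 and chr9:106368432-106368581 on the plus strand for Dusp7.
Dusp1: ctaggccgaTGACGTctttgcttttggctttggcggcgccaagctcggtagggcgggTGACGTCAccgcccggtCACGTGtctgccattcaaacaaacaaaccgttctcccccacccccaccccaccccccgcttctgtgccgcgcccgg
Dusp5: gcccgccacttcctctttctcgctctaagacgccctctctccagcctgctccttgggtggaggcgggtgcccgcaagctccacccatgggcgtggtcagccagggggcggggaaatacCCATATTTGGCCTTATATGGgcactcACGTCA
Dusp8: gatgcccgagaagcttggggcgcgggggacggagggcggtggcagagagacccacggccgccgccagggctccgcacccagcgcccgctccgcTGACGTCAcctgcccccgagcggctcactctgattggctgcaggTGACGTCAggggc
Dusp7: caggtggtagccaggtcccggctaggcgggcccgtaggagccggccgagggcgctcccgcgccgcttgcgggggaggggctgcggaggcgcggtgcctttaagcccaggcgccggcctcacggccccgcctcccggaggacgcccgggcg

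Dusp1 held the full TGACGTCA at bases 143 to 136 before its start, a second core at 191 to 186, and CACGTG at 126 to 121. Dusp8 held TGACGTCA at bases 107 to 100 and again at 63 to 56. Dusp5 held a pair of adjacent CArG boxes, at bases 82 to 73 and 72 to 63, and a TGACGT core on the other strand at 56 to 51. Of 32851 RefSeq upstream windows of the same length, 1.55% held TGACGTCA, 6.47% the core, 17.8% the short form, 6.02% CACGTG and 1.47% a CArG box. A second full TGACGTCA was present in 10 of those windows and a second CArG box in 6. Dusp2 held CACGTG at bases 109 to 104, and Dusp16 the short form at 70 to 66. These letters were found in no window of Dusp6, Dusp7 or Dusp10, and TGANTCA (6.75% of all windows) and TATAAA (12.4%) in none of the 8. Median GC content was 52.4% over all windows, and the 8 member windows had 56.4% to 77.2%. The shares over all windows were not matched for GC content. A match is a description of the sequence and not a bound site. The map of matches places the full and core elements of Dusp1, Dusp5 and Dusp8 on a common scale.

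**Figure D1:**
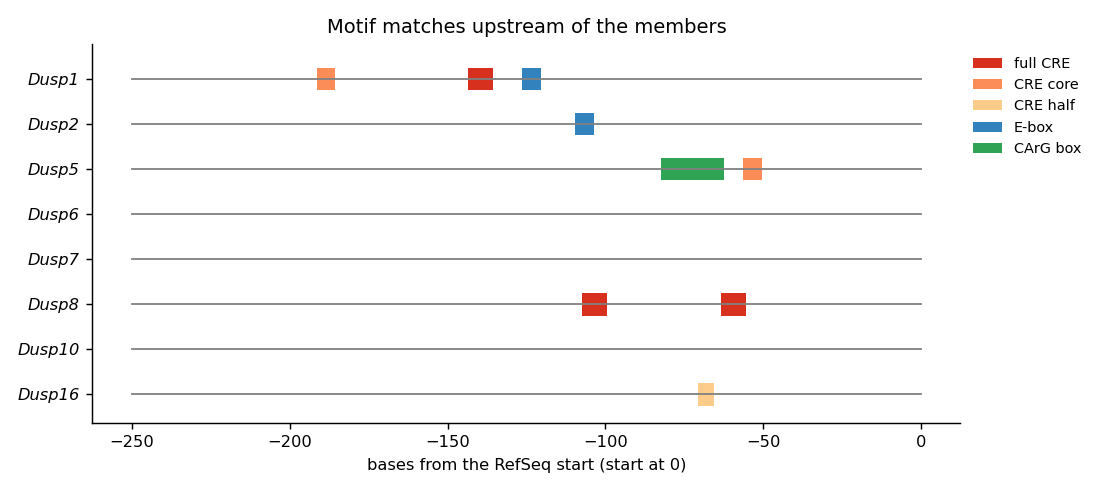
Motif matches in the 250 bases before the RefSeq start of 8 members; the x axis is the distance from the start in bases and coloured blocks are matches on either strand. Full TGACGTCA elements stand in Dusp1 and, as a pair, in Dusp8, the green block of Dusp5 is 2 adjacent CArG boxes, and Dusp6, Dusp7 and Dusp10 carry none of the motifs searched.

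Dusp1 (chr17:26505590-26562128, mm10, minus strand) was the highest member per length in both sample types. In kidney it was at 25.8 CPM per kilobase of merged exons (mean of 6 libraries), followed by Dusp6, the ERK-selective feedback phosphatase, at 19.0. Their libraries overlapped, with Dusp1 as low as 19.5 and Dusp6 as high as 21.3. A middle group held Dusp4 (7.78 CPM per kilobase), Dusp7 (7.20) and Dusp16 (6.39), whose neighbours overlapped, and every library of Dusp4 lay under every library of Dusp6. Dusp9 (2.87) and then Dusp8 (1.32) each stood apart from the member above, while Dusp8, Dusp5 (0.727), Dusp10 (0.497) and Dusp2 (0.444) overlapped with the next in order.

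In the F4/80+ libraries Dusp1 stood alone, at 139 CPM per kilobase with a lowest library of 112, against 14.7 for Dusp6 with a highest library of 18.6. The order below it was Dusp4 (9.68), Dusp16 (5.95), Dusp7 (4.99), Dusp5 (2.93), Dusp9 (2.38), Dusp8 (2.33) and Dusp10 (2.26), and each of these overlapped its neighbours. Dusp2, a phosphatase first known from activated T cells, was last at 0.345 and did not overlap Dusp10. With the longest annotated transcript in place of merged exons, Dusp1 and Dusp6 stayed highest and next in both sample types, and in kidney Dusp16 moved from rank 5 to rank 3. The plot of levels per length shows Dusp1 about an order of magnitude over its relatives in the F4/80+ libraries and beside Dusp6 in kidney.

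**Figure D2:**
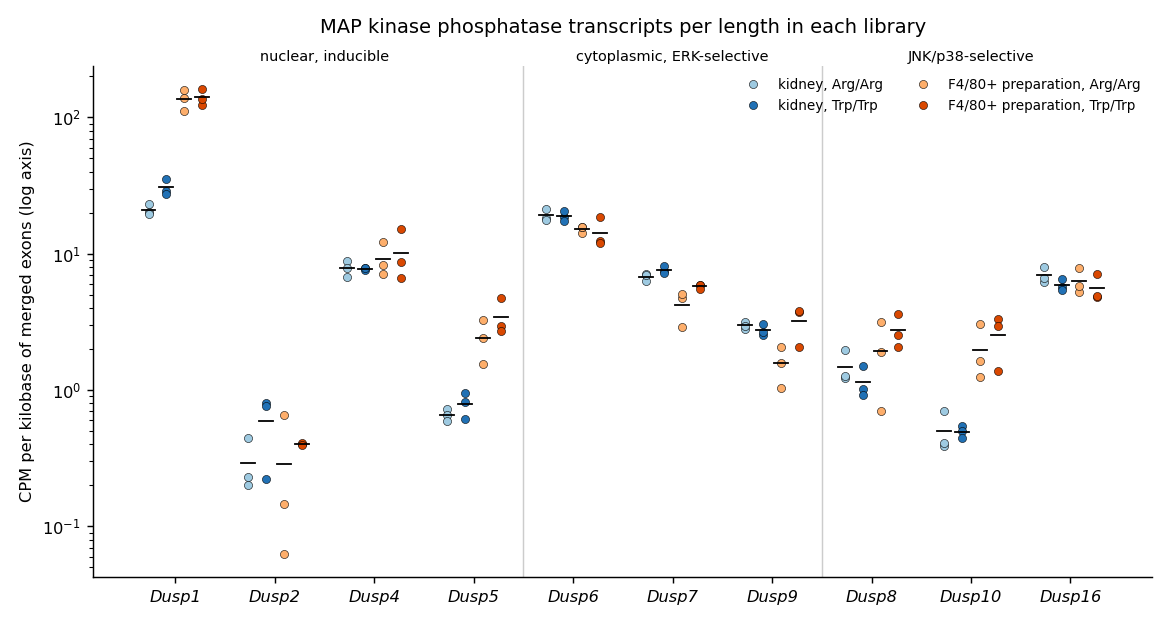
CPM per kilobase of merged exons (log axis) of each member in each of the 12 libraries, grouped by role; points are libraries, coloured by sample type and genotype, and bars are means of 3. Dusp1 lies at 19.5 to 35.6 in kidney and 112 to 162 in F4/80+ libraries, while Dusp6 lies at 17.5 to 21.3 and 11.9 to 18.6.

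Between sample types, 4 of the 10 members were higher in F4/80+ preparations than in whole kidney (Dusp1, Dusp5, Dusp10 and Dusp8) and Dusp7 was lower. Across all 13578 shared nuclear protein-coding genes tested, 32.4% were higher and 31.8% lower by the same rule (edgeR quasi-likelihood test, genotype as an additive term, adjusted p under 0.05), so neither count stands out from the background. The libraries of the sample types did not overlap for 3 members on the higher side and 1 on the lower side, against 15.2% and 27.0% of all genes. The median log2 difference was 0.24 over the 10 members and 0.00 over all genes.

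Dusp1 measured 76.5, 66.9 and 64.6 CPM in the Arg/Arg kidneys and 118, 95.4 and 91.4 CPM in the Trp/Trp kidneys. The Arg/Arg F4/80+ libraries had 463, 528 and 371 CPM and the Trp/Trp ones 411, 536 and 451 CPM. Every F4/80+ library was more than 3 times the highest kidney library. The means were 85.4 ± 20.2 and 460 ± 64.8 CPM (SD, n = 6 each), a difference of 2.58 ± 0.15 on the log2 scale or 5.98-fold (edgeR adjusted p = 6.75e-09). In 98.6% of the genes tested the log2 difference was smaller. The long upstream exons of Dusp1 reach into Ergic1 on the opposite strand, and the sources used here do not say whether counting used strand. Ergic1 itself was at 114 ± 2.86 CPM in kidney and 50.5 ± 16.1 in F4/80+ libraries (SD, n = 6). The part of Ergic1 reads in the Dusp1 values was not tested.

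Dusp5 (chr19:53529109-53542431), a nuclear phosphatase specific for ERK, measured 1.79, 1.62 and 1.47 CPM in the Arg/Arg kidneys and 2.37, 1.51 and 2.02 CPM in the Trp/Trp kidneys. The Arg/Arg F4/80+ libraries had 8.14, 5.94 and 3.82 CPM and the Trp/Trp ones 7.27, 11.6 and 6.70 CPM. No F4/80+ library fell into the kidney range, and the difference was 2.10 ± 0.21 on the log2 scale, or 4.30-fold (edgeR adjusted p = 7.95e-07). Counts behind these values were 36 to 82 in kidney and 39 to 99 in F4/80+ libraries, and an antisense RNA covers the start of the gene.

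Dusp10 (chr1:184013302-184075636), which prefers p38 and JNK, measured 1.18, 2.12 and 1.24 CPM in the Arg/Arg kidneys and 1.65, 1.53 and 1.35 CPM in the Trp/Trp kidneys. The Arg/Arg F4/80+ libraries had 9.30, 4.93 and 3.82 CPM and the Trp/Trp ones 4.22, 10.1 and 8.93 CPM. The ranges were separate, with a difference of 2.25 ± 0.26 on the log2 scale, or 4.75-fold (edgeR adjusted p = 4.28e-06). For both Dusp5 and Dusp10 the highest Arg/Arg F4/80+ library was replicate 1. Opposite-strand genes also overlap Dusp10 (1700056E22Rik), Dusp8 (Gm32786) and Dusp16 (Gm36328), and their part in the counts was not tested.

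Dusp8 (chr7:142079490-142095843), another JNK-directed member, measured 5.996, 9.50 and 6.16 CPM in the Arg/Arg kidneys and 7.34, 4.93 and 4.498 CPM in the Trp/Trp kidneys. The Arg/Arg F4/80+ libraries had 15.4, 9.22 and 3.42 CPM and the Trp/Trp ones 10.1, 17.7 and 12.3 CPM. Arg/Arg replicate 3 lay under every kidney library, so the ranges overlapped. The difference was 0.91 ± 0.29 on the log2 scale, or 1.87-fold (edgeR adjusted p = 0.0124), and it did not pass an exact two-sided permutation test of the 6 and 6 libraries (0.67 on log2(CPM + 0.5), adjusted p = 0.134).

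Dusp7 (chr9:106368632-106375724), a cytoplasmic ERK phosphatase, was the member that was lower. It measured 23.6, 21.1 and 23.4 CPM in the Arg/Arg kidneys and 25.2, 24.3 and 27.3 CPM in the Trp/Trp kidneys. The Arg/Arg F4/80+ libraries had 16.0, 16.9 and 9.69 CPM and the Trp/Trp ones 19.8, 19.7 and 18.4 CPM. All 6 F4/80+ libraries lay under all 6 kidney libraries, with a difference of -0.42 ± 0.12 on the log2 scale, or 1.34-fold lower (edgeR adjusted p = 0.00839).

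The remaining 5 did not pass. Dusp6 was at 54.8 to 66.6 CPM in kidney and 37.3 to 58.1 in F4/80+ libraries (log2 difference -0.24 ± 0.12, edgeR adjusted p = 0.086). Dusp4, which takes nuclear ERK and JNK as substrates, was at 18.5 to 24.0 CPM and 18.1 to 41.7 (0.46 ± 0.20, adjusted p = 0.0577). Each of these lay near the threshold: Dusp6 passed with library totals in place of TMM scaling (-0.37, adjusted p = 0.0113), and Dusp4 passed with DESeq2 (0.47, adjusted p = 0.0458). Dusp9 (6.87 to 8.58 and 2.84 to 10.3 CPM, log2 difference -0.21 ± 0.22), Dusp2 (0.401 to 1.62 and 0.126 to 1.31 CPM, -0.24 ± 0.47) and Dusp16 (42.2 to 62.0 and 37.9 to 61.2 CPM, 0.01 ± 0.11) had adjusted p of 0.419, 0.663 and 0.921.

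Summed over the family, the level per length was 67.4 to 83.0 CPM per kilobase in kidney and 149 to 216 in F4/80+ libraries. The 9 relatives of Dusp1 together were at 46.2 ± 1.64 in kidney and 45.6 ± 5.73 in F4/80+ libraries (CPM per kilobase, mean ± SD, n = 6), so the difference in the sum lay in Dusp1. Dusp1 made up 35.5% ± 5.44 of the family sum in kidney and 75.2% ± 2.04 in F4/80+ libraries. Dusp6 took 26.5% ± 3.02 in kidney and 8.04% ± 1.40 in F4/80+ libraries, and Dusp7 10.02% ± 0.830 and 2.70% ± 0.514. Within the 9 relatives, means per kilobase went both ways. Dusp6 (19.0 in kidney and 14.7 in F4/80+ libraries) and Dusp7 (7.20 and 4.99) had lower means, as had Dusp16, Dusp9 and Dusp2. Dusp4 (7.78 and 9.68), Dusp5 (0.727 and 2.93), Dusp10 (0.497 and 2.26) and Dusp8 (1.32 and 2.33) had higher means. Of these, Dusp5, Dusp7, Dusp8 and Dusp10 passed the test given above. The stacked shares show a nearly uniform F4/80+ set, 71.7% to 77.8% Dusp1, against 28.8% to 42.8% in kidney.

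**Figure D3:**
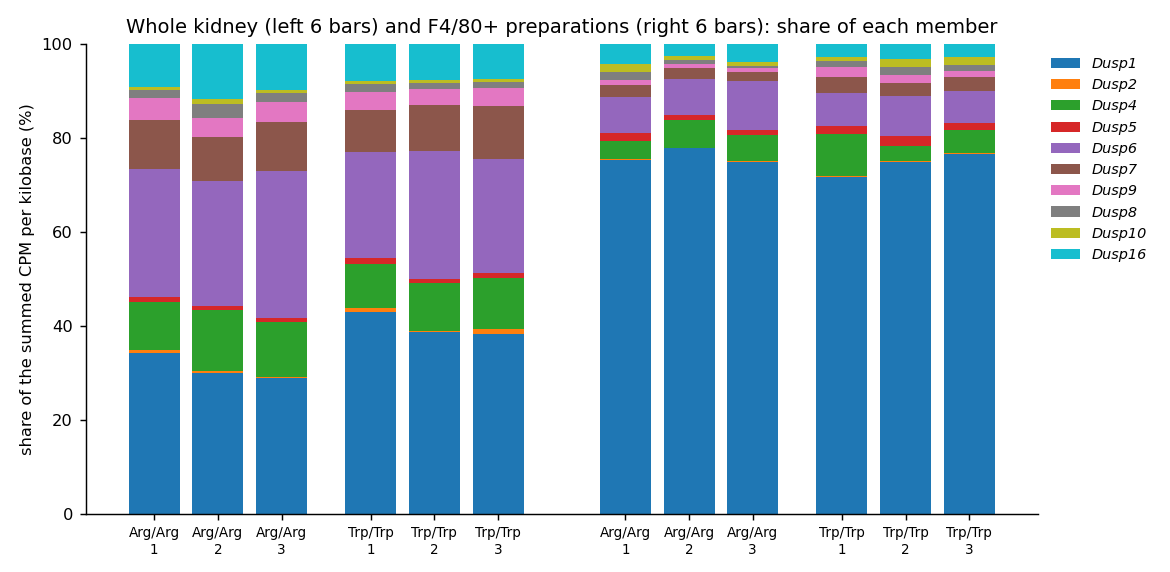
Share of each member in the summed CPM per kilobase (%) for each library, whole kidney in the left 6 bars and F4/80+ preparations in the right 6. Dusp1 at the base takes 28.8% to 42.8% in kidney and 71.7% to 77.8% in F4/80+ libraries, and within kidney each Trp/Trp bar has a larger Dusp1 share than any Arg/Arg bar.

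In whole kidney, Dusp1 was higher in every Trp/Trp library than in any Arg/Arg library, which is the pattern for which the family was chosen. From the values above, the means were 69.4 ± 6.34 CPM in the Arg/Arg and 102 ± 14.2 CPM in the Trp/Trp libraries (SD, n = 3), a log2 difference of 0.53 ± 0.09 (SE). In the authors' deposited table the log2 difference is 0.53 and Dusp1 has rank 2 by p-value. Of 14556 genes with an adjusted p, 15 (0.103%) passed there. As this difference chose the family, its rank is a description and adds no support. edgeR called 0 of 14464 genes (0%), with 826 at an unadjusted p under 0.05. The share of Dusp1 in the family sum was 34.3%, 30.0% and 28.8% in Arg/Arg and 42.8%, 38.6% and 38.3% in Trp/Trp kidneys.

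One Trp/Trp kidney library, replicate 1, stood apart and also had the highest Dusp1. Its summed fat markers were at 287 CPM (7 of 7 measured), against 87.3 to 109 in the other 5 kidneys. Its B and plasma cell markers were at 90.0 CPM (6 of 7 measured, Ighm not in the table), against 4.32 to 5.66, and its stromal markers at 932 CPM (11 of 11), against 431 to 470. Macrophage markers summed to 230 to 251 CPM in the Arg/Arg kidneys and 266 to 360 CPM in the Trp/Trp kidneys, and T and NK cell markers (11 of 13 measured) at 5.60 to 8.55 and 11.0 to 18.7. The part of these cells in the Dusp1 difference was not tested. Without that library the log2 difference of Dusp1 was 0.43, a description, since this difference chose the family. That the 2 other Trp/Trp kidneys lay above all Arg/Arg kidneys in Dusp1 already follows from the separation given above and adds no support. Those 2 kidneys also lay above all Arg/Arg kidneys in their macrophage and T and NK cell sums.

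Among the relatives of Dusp1 in kidney, Dusp7 was the other member whose genotypes did not overlap, at 22.7 ± 1.40 CPM in the Arg/Arg and 25.6 ± 1.57 CPM in the Trp/Trp libraries (log2 0.15 ± 0.08). No member was lower in every Trp/Trp kidney. Non-overlap to the higher side held for 6.59% of all genes and to the lower side for 3.67%, and since the contrast chose the family, nothing is read from 2 and 0 of 10. Dusp2 was at 0.893, 0.460 and 0.401 CPM in the Arg/Arg kidneys and 1.62, 0.448 and 1.52 CPM in the Trp/Trp kidneys (0.97 ± 0.52), on 12 to 56 counts, with Trp/Trp replicate 2 inside the Arg/Arg range. Dusp5 (0.24 ± 0.24), Dusp4 (-0.03 ± 0.10), Dusp6 (-0.03 ± 0.08), Dusp9 (-0.13 ± 0.12) and Dusp10 (-0.04 ± 0.29) had differences no larger than about their SE. Dusp16 (-0.26 ± 0.10) and Dusp8 (-0.39 ± 0.23) had lower Trp/Trp means with overlapping libraries. Without Arg/Arg replicate 2, which had the highest Dusp8, Dusp10 and Dusp16, the values were -0.13 for Dusp8, 0.31 for Dusp10 and -0.15 for Dusp16.

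In F4/80+ preparations no member passed the test between genotypes. Of the 9 members kept by the filter on low counts, 0 passed (edgeR, adjusted p under 0.05), as did 0 of all 15225 genes (0%); 1 of the 9 had an unadjusted p under 0.05, against 8.04% of all genes, and DESeq2 called 4 genes, none a member. Dusp1 had means of 454 ± 79.4 CPM in the Arg/Arg and 466 ± 63.9 CPM in the Trp/Trp libraries (SD, n = 3) and a log2 difference of -0.11 ± 0.24 (edgeR adjusted p = 0.973). The CPM means and the fitted value, which uses TMM scaling, differ in sign, and the fitted value was 0.07 without Arg/Arg replicate 2. The libraries of the genotypes were interleaved.

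Dusp9, an X-linked ERK phosphatase (chrX:73639419-73643514), was the member with the small unadjusted p. The Arg/Arg libraries had 5.67, 4.30 and 2.84 CPM and the Trp/Trp libraries 10.1, 10.3 and 5.64 CPM, so 2 Trp/Trp libraries lay above and the lowest just inside the Arg/Arg range. The log2 difference was 0.93 ± 0.36 (edgeR adjusted p = 0.605), on 29 to 113 counts. Dusp7 was the only member here whose genotypes did not overlap, higher in Trp/Trp (log2 0.32 ± 0.27, edgeR adjusted p = 0.828), where 7.19% of all genes did so to the higher side and 3.33% to the lower. Dusp2 was not kept, with 1 to 9 counts per library. The other 6, Dusp4 (0.03, of either sign among the alternatives), Dusp5 (0.40), Dusp6 (-0.25), Dusp8 (0.43), Dusp10 (0.26) and Dusp16 (-0.29), had SE of 0.21 to 0.41 on the log2 scale. None of these values exceeded 2 times its SE.

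The F4/80+ libraries varied in their tubule markers. Markers of the distal nephron and collecting duct, 12 of 12 measured, summed to 10240, 4143 and 3637 CPM in the Arg/Arg libraries and 9321, 11237 and 8533 CPM in the Trp/Trp libraries. In whole kidney they summed to 3152 to 3382 CPM, under every F4/80+ library. The part of this content in the sample type differences of the members was not tested. Dusp5, Dusp8, Dusp9, Dusp10 and Dusp16 were highest in replicate 1 within Arg/Arg and in replicate 2 within Trp/Trp, the libraries with the highest distal sums of their genotype, and Dusp4 was lowest in both. The other libraries did not keep that order: in Trp/Trp, Dusp10 was at 4.22 CPM in replicate 1 and 8.93 in replicate 3, which had the lower distal sum. Arg/Arg replicate 1 and Trp/Trp replicate 2 also had the highest thick ascending limb sums of their genotype (8597 and 16400 CPM). Their proximal tubule sums were the lowest of their genotype (37070 and 23932 CPM). Dusp2 was highest in these libraries too, on 1 to 9 counts per library. The part of tubule content in these values was not tested. Proximal tubule markers ranged from 37070 to 73127 CPM in the Arg/Arg libraries and 23932 to 47047 CPM in the Trp/Trp libraries, and macrophage markers from 126 to 248 and 204 to 300 CPM.

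Side by side, the genotype differences of Dusp1 were 0.53 ± 0.09 in kidney and -0.11 ± 0.24 in F4/80+ libraries, and those of Dusp9 were -0.13 ± 0.12 and 0.93 ± 0.36 (log2, SE). Fitted together, the difference between the genotype effects was -0.65 ± 0.24 for Dusp1, 1.05 ± 0.35 for Dusp9 and 0.81 ± 0.54 for Dusp8. As the kidney contrast is part of these values, they are given as a description. The plot of contrasts sets the 3 comparisons of each member beside each other.

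**Figure D4:**
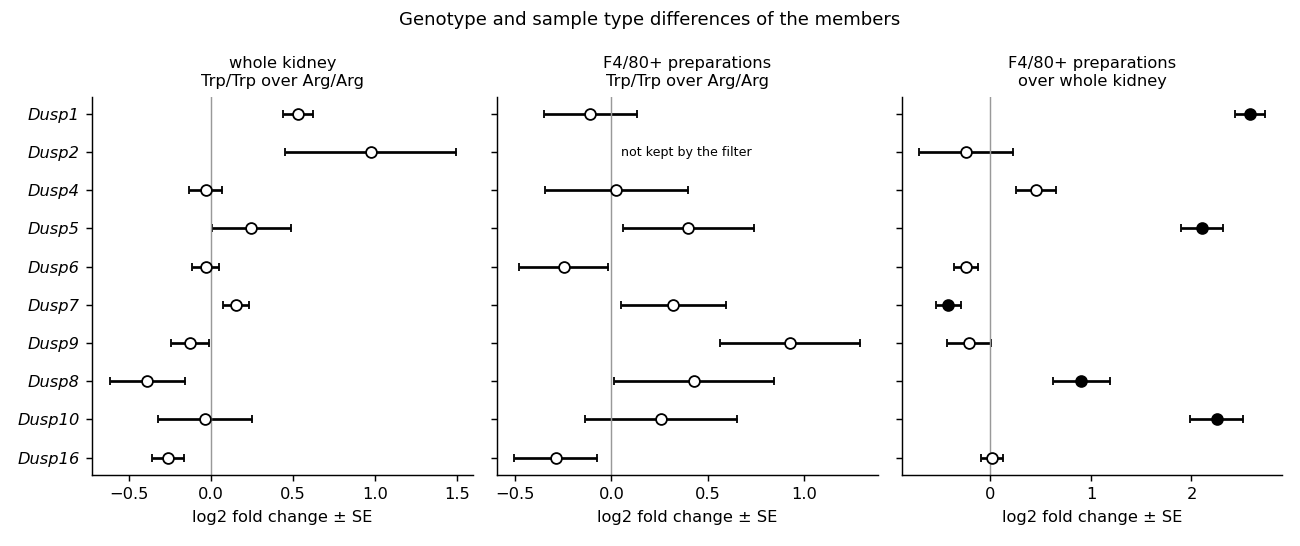
Log2 fold change with SE of each member in the 3 comparisons, from edgeR fits; filled points in the right panel passed an adjusted p under 0.05, and no test is drawn for kidney. Dusp1, Dusp5 and Dusp10 lie beyond 2 in the sample type panel, whereas in the F4/80+ genotype panel no member passed and Dusp2 was not fitted.

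The kinases that these phosphatases act on went in both directions between sample types. The counts of this and the following lists stand against 32.4% of all genes higher and 31.8% lower. Of 9 MAP kinase genes tested (10 in the list), 2 were higher and 6 lower in F4/80+ preparations (edgeR, adjusted p under 0.05), with a median log2 difference of -0.34. Mapk10, which encodes JNK3, was at 1.58 ± 0.208 CPM in kidney and 19.0 ± 7.19 in F4/80+ libraries (log2 3.65 ± 0.22), Mapk12 (p38 gamma) at 10.9 ± 1.07 and 1.92 ± 1.27, and Mapk14 (p38 alpha) at 171 ± 11.2 and 92.3 ± 15.6. Of 7 MAP2 kinase genes 2 were higher and 2 lower (median 0.08). Map2k2 (MEK2) was lower (-0.58 ± 0.13), as was Map2k7 (MKK7, -0.40 ± 0.10), and Map2k3 (MKK3) was higher (0.35 ± 0.10), the last not with library totals (0.22). Of 15 MAP3 kinase genes 7 were higher, among them Map3k1 (1.47 ± 0.14) and Map3k20 (2.02 ± 0.21), and 6 lower, among them Map3k3 (-1.39 ± 0.14), with a median of 0.23.

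Upstream, 6 of 16 Ras, adaptor and receptor genes were higher and 8 lower (median -0.31). Pdgfra, a receptor of stromal cells, was at 53.6 ± 8.77 CPM in kidney and 1.48 ± 1.00 in F4/80+ libraries, and the adaptors Shc1 (-1.14 ± 0.09) and Grb2 (-1.09 ± 0.09) were lower. Among 15 ERK feedback genes, which like Dusp6 follow ERK activity, 5 were higher and 3 lower (median 0.01). Ier3 was higher (2.24 ± 0.15), as was the ERK inhibitor Spry2 (1.05 ± 0.12), while its relative Spry1 was lower (-1.22 ± 0.17).

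Immediate early genes, the fast transcriptional targets of MAP kinases to which Dusp1 is usually counted, were mostly higher in F4/80+ preparations. Of 24 tested, 22 were higher and 1 lower (edgeR, adjusted p under 0.05), with a median log2 difference of 3.69. Fos went from 1.11 ± 0.359 to 2555 ± 688 CPM, Egr1 from 6.91 ± 2.51 to 1885 ± 455 and Jun from 48.6 ± 9.90 to 915 ± 141 (kidney and F4/80+ means, SD, n = 6). The 2.58 of Dusp1 lay under the median of that list, and Dusp5 (2.10) and Dusp10 (2.25) likewise. The part of cell isolation in these differences was not tested, since no whole-kidney library went through it. Of 15 glucocorticoid-regulated genes, another class to which Dusp1 belongs, 4 were higher, among them Cebpd (3.17 ± 0.21) and Mt2 (3.08 ± 0.28), and 9 lower, among them Fkbp5 (-1.56 ± 0.15), with a median of -0.75. The plot of pathway lists shows the median of the immediate early genes furthest to the right, with single genes of that list as low as -2.03 (Jund) and genes of other lists as high as 3.65 (Mapk10).

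**Figure D5:**
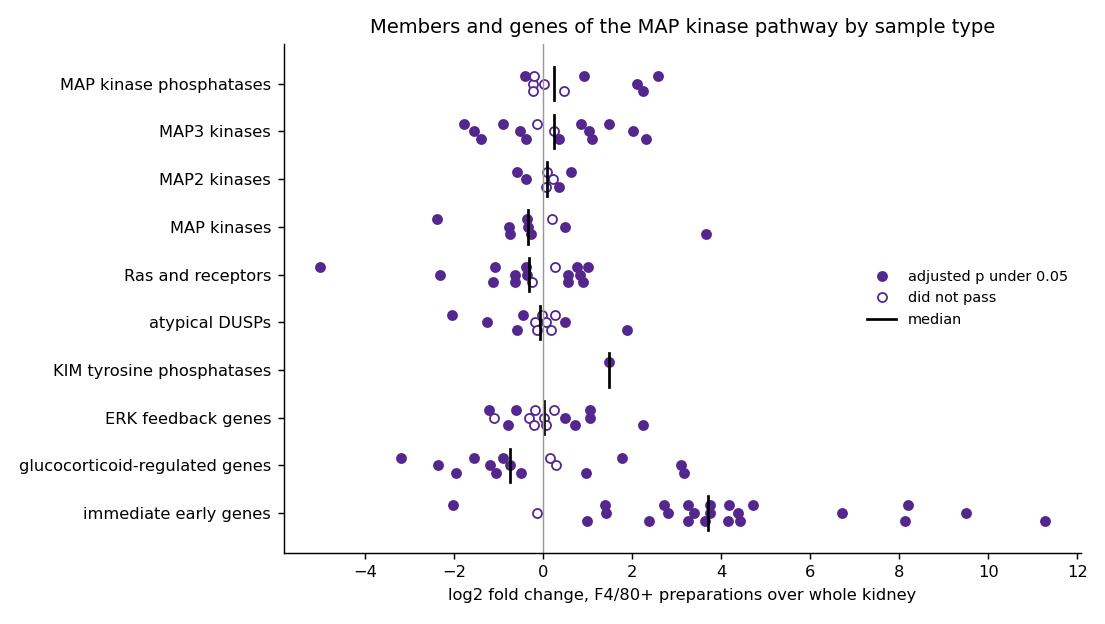
Log2 fold change, F4/80+ preparations over whole kidney, of the 10 phosphatases and of the tested genes of 9 lists; filled points passed an adjusted p under 0.05, and vertical bars are medians. The immediate early median is 3.69, the glucocorticoid median is -0.75, and the phosphatases run from -0.42 to 2.58.

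Between genotypes in F4/80+ preparations, 0 genes of these 9 lists passed (edgeR, adjusted p under 0.05), as for all genes. Of 24 immediate early genes 3 had an unadjusted p under 0.05, against 8.04% of all genes, and their median log2 difference was 0.41 against 0.01 over all genes. Nr4a2 was at 10.1 ± 4.54 CPM in the Arg/Arg and 18.3 ± 1.42 CPM in the Trp/Trp libraries, Gadd45b at 111 ± 51.7 and 193 ± 6.27, and Egr2 at 27.0 to 54.5 and 50.7 to 69.1 (mean ± SD, n = 3, and for Egr2 the range), each with an edgeR adjusted p of 0.605. For Dusp1 the sign in this contrast depends on the scaling and on 1 library, as given above. Among ERK feedback genes Ccnd1 (0.70 ± 0.22), Ier3 (0.68 ± 0.26) and Etv1 (-0.996 ± 0.33) had the smallest p, and among kinases Map2k6, a p38 activator, was at 28.5 to 30.4 CPM in the Arg/Arg and 22.3 to 23.0 CPM in the Trp/Trp libraries (edgeR adjusted p = 0.608). Agtr1a, the main angiotensin II receptor gene, was at 33.9 ± 7.72 and 21.8 ± 5.32 CPM (edgeR adjusted p = 0.605). The glucocorticoid-regulated genes with the smallest p were Lcn2 (1.26 ± 0.35), Sult1a1 (0.91 ± 0.28) and Klf9 (-0.76 ± 0.26).

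The genes whose levels went most like Dusp1 from library to library were sought among 10070 named genes with a mean of at least 5 CPM in both sample types, by Pearson correlation of log2(CPM + 0.5) over 12 libraries after the mean of each sample type was taken off. The 8 highest were Sirpa (0.75), Pon2 (0.74), Cnot8 (0.74), H2-T24 (0.73), Trim35 (0.73), Irgm1 (0.71), Slc22a23 (0.70) and Plac8 (0.70). None is in the 9 lists. None stayed among the 8 highest when kidney or F4/80+ libraries were taken alone, and 3 did by rank correlation. The genotype difference of Dusp1 in kidney, by which the family was chosen, was not taken off and enters these correlations, and in kidney alone the 8 genes had correlations of 0.69 to 0.88. The median correlation with Dusp1 was 0.30 for 17 immediate early genes, 0.27 for 13 glucocorticoid-regulated genes and 0.26 for 7 MAP kinase genes. These were the highest list medians, and single immediate early genes ran from -0.10 to 0.47. Medians were 0.12 for Ras, adaptor and receptor genes, 0.11 for MAP3 kinases and 0.09 for MAP2 kinases. ERK feedback genes had 0.09 and atypical dual-specificity phosphatases 0.05. Over all 10070 genes the median was 0.08 and the 95th percentile 0.41. Values of a library share its depth and scaling, so these are descriptions.

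Among the 45 pairs of members, measured the same way over 12 libraries, the order depended on the measure. By Pearson correlation Dusp8 and Dusp10 were highest (0.81, rank correlation 0.79), then Dusp5 and Dusp9 (0.80 and 0.63). By rank correlation Dusp2 and Dusp5 were highest (0.92, Pearson 0.68), with Dusp2 on only 1 to 9 counts in each F4/80+ library. Of its relatives Dusp1 was most like Dusp5 (0.58 and 0.58), another nuclear inducible member, and then Dusp7 (0.49 and 0.55). For Dusp5 and Dusp8 the correlation was 0.94 over the 6 F4/80+ libraries and 0.03 over the 6 kidneys, so their likeness rests on the F4/80+ libraries.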

How the data were processed

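Members and lists were chosen with earlier results of these data known. Both deposited tables held raw counts per gene and library, whole numbers, with the authors' log2 fold change, fold (ratio), p-value and adjusted p-value, SE and Wald statistic (score columns) and mean normalised signal. Of these, the deposited log2 value, the rank by p-value and the count of adjusted p-values under 0.05 are used, turned to Trp/Trp over Arg/Arg by sign against the counts. STAR, DRAGEN, DESeq2 and mm10 are named per the submitters' processing notes; for the annotation release, as for strand, the entry is: not given in the sources used here. Of the identifiers, 15356 of 15361 and 18124 of 18145 matched GENCODE for mm10, which gave exon lengths.

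CPM used nuclear protein-coding counts, a denominator of 17.8 M to 49.99 M in kidney and 6.88 M to 11.1 M in F4/80+ libraries. Counts were tested with edgeR 4.0.16 in R 4.3.3 (filterByExpr, TMM, quasi-likelihood, Benjamini-Hochberg adjustment over all genes kept, threshold 0.05), each table on its own for genotype and 13733 shared nuclear protein-coding genes for sample type. The SE is the log2 fold change divided by the root of its F statistic. The function was tested on simulated data. Alternatives were DESeq2 1.42.0, other scalings, no filter, exact permutation, a replicate block and leaving out each library. No library pair was identical.

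Named genes were all 10 members, up to 3 genes per list of smallest p in the F4/80+ genotype and sample type contrasts, and the 8 most like Dusp1. Summed marker lists of 11 cell types were checked. Endothelial markers summed to 742 to 984 CPM in kidney and 229 to 442 in F4/80+ libraries. Thick ascending limb markers summed to 6720 to 7680 and 4207 to 16400, and podocyte markers to 471 to 718 and 156 to 324. Neutrophil markers summed to 0.956 to 2.28 CPM in kidney (4 of 10 measured) and 0.0978 to 0.940 in F4/80+ libraries (1 of 10). These neutrophil sums are over unlike gene sets and are not compared.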

Additional observations from a re-analysis of the deposited data

How the results depend on the processing

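In the sample type comparison Dusp1, Dusp5, Dusp10 and Dusp7 passed under every alternative run, each single library left out included. The count of members higher in F4/80+ libraries was 3 to 5 under all alternatives; the count lower was 2, with Dusp6 added, with library totals, with the exact permutation test (smallest p it allows 0.00216) and without F4/80+ Arg/Arg replicate 2 or Trp/Trp replicate 2 (range over single libraries left out 1 to 2). Library totals moved the median of all genes to -0.13, and the share of calls that were higher was 50.5% with TMM, 41.6% with library totals and 38.5% by permutation. Dusp16, near 0, was -0.10 with library totals, -0.12 by permutation and -0.064 to 0.063 over single libraries left out. In kidney the Dusp1 genotype difference was 0.43 to 0.60 over single libraries left out, lowest without Trp/Trp replicate 1. In F4/80+ libraries it was -0.21 to 0.071, and that of Dusp4 was -0.022 with DESeq2, -0.0083 with RLE size factors and -0.47 to 0.32 over single libraries left out; the cause was not tested. DESeq2 as run here called 15 genes in kidney and 4 in F4/80+ libraries where edgeR called 0. In the authors' deposited F4/80+ values, 20 of 5431 genes with an adjusted p passed.

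Deviations from the group means were correlated between Arg/Arg and Trp/Trp libraries. Same-numbered libraries gave -0.08 to -0.01 in kidney and -0.49 to 0.18 in F4/80+ preparations. Differently numbered ones gave -0.12 to 0.11 and -0.15 to 0.48. No pairing by number was seen, though with 3 libraries per group this check is coarse. With a replicate block the Dusp1 differences were 0.53 in kidney, -0.09 in F4/80+ libraries and 2.58 between sample types, that of Dusp4 in F4/80+ libraries was -0.030, and no call of a member changed.

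Precision is limited by 3 libraries per genotype and, for Dusp2, Dusp5, Dusp8, Dusp9 and Dusp10, by F4/80+ counts of 1 to 151.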

Other observations

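The atypical dual-specificity phosphatases, small relatives without the MAP kinase docking domain, were split between sample types: of 12 tested (16 in the list), 2 were higher and 4 lower in F4/80+ preparations (edgeR, adjusted p under 0.05), with a median log2 difference of -0.08, where 32.4% of all genes were higher and 31.8% lower. Dusp18 was at 13.0 ± 1.56 CPM in kidney and 46.3 ± 18.8 in F4/80+ libraries (SD, n = 6; 3.70-fold, edgeR adjusted p = 1.51e-06). Dusp15 was at 15.3 ± 2.20 and 3.63 ± 2.70 CPM (4.13-fold lower, edgeR adjusted p = 3.89e-05), and Dusp23 at 10.3 ± 0.955 and 3.82 ± 1.37 CPM (2.43-fold lower, edgeR adjusted p = 0.000177). Between genotypes in F4/80+ libraries 0 of 11 passed (edgeR), with 2 at an unadjusted p under 0.05, Dusp15 (1.32 ± 0.50) and Dusp18 (0.69 ± 0.27), where 8.04% of all genes were, and Dusp14 next at -0.66 ± 0.34.

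Ptprr, a tyrosine phosphatase that docks on ERK and p38, was the 1 gene of the 3 in its list measured for both sample types. It was at 2.19 ± 0.389 CPM in kidney and 5.91 ± 2.76 in F4/80+ libraries (log2 1.48 ± 0.26, edgeR adjusted p = 0.000187). Its genotype difference in F4/80+ libraries was 0.54 ± 0.42 (edgeR adjusted p = 0.801).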
